A study of Mus musculus with 18 samples.

Results

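Members of the BCL2 family, which governs the mitochondrial path to cell death, were followed here: the survival genes Mcl1, Bcl2 and Bcl2l1, the BH3-only genes Bcl2l11, Bbc3, Pmaip1 and Bid, the effector genes Bax and Bak1, and Bcl10, 10 genes in all. Every probe set whose array annotation gives one of these symbols and no other was taken, whatever its value. This gave 31 of 45037 probe sets for 9 of the 10 genes, because no probe set is annotated with Bax alone. Of the 31, 27 passed the signal filter (a value of at least 8.5 on at least 1 array) and were tested among 27773 probe sets. The 4 others were 1422938_at of Bcl2, 1426050_at of Bcl2l1, 1426334_a_at of Bcl2l11 and 1425716_s_at of Bak1. The probe set with the highest mean log2 intensity of a gene is called its lead probe set below.

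BCL2 proteins decide whether the outer membrane of the mitochondrion stays intact. MCL1, BCL2 and BCL-XL (the product of Bcl2l1) hold the effectors BAX and BAK in check, and BH3-only proteins such as BIM (Bcl2l11), PUMA (Bbc3), NOXA (Pmaip1) and BID release that hold. MCL1 is known for its very fast turnover, so that a cell in which translation is blocked soon runs out of it. BCL10 shares only the name: it is a CARD adaptor that, with MALT1, carries signals to NF-κB.

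The cells were NIH-3T3, an established line of mouse fibroblasts, and the RNA was newly transcribed RNA, purified after a pulse of 4-thiouridine (4sU, 500 µM) in the last 30 min of treatment. Cells of the 6 treatments were first kept for 15 min with cycloheximide (CHX, an inhibitor of translation) or with its solvent DMSO. They then received 100 U/ml IFNγ, 100 U/ml IFNα or mock medium for 1 h. The treatments are named IFNγ+CHX, IFNγ, IFNα+CHX, IFNα, CHX and mock, with 3 biological replicates and thus 3 arrays each, 18 in all. CHX thus acted for 75 min in the 3 treatments that contain it, all 6 treatments saw 4sU, and the 3 treatments without CHX saw DMSO. Values are intensities of gc-RMA on a linear scale, and a probe set was called changed at a Benjamini-Hochberg adjusted p under 0.01 in limma, with no minimum fold.

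The labelled IFN treatments and the fibroblast origin of the cells were borne out by known genes. Irf1, a direct IFNγ target, was at 11533 to 13275.9 on the IFNγ arrays and at 203.7 to 376.2 on the mock arrays, and Mx2, a target of IFNα, was at 305.1 to 346.2 on the IFNα arrays and at 4.9 to 5.1 on the mock arrays. All 8 fibroblast markers passed the filter and read at least 445.5 on all arrays. Of the 4 epithelial markers 3 also passed the filter. Every marker of leukocytes, epithelium and endothelium with a probe set stayed below 32 on all arrays. The summed intensity of the fibroblast markers was itself higher with CHX, between 54293.9 and 63569.6 on the 9 arrays with CHX and between 43796.3 and 51906.3 on the 9 arrays without it. Its part in the results below was not tested. RNA quality was read from the control probe sets at both ends of the Actb transcript. The log2 ratio of the 3′ over the 5′ probe set was 2.90 on the second IFNγ+CHX array, 2.33 on the third IFNα+CHX array, 2.63 on the first CHX array and 2.78 on the second IFNγ array. On the other 14 arrays it lay between 1.31 and 2.00. Results were therefore also computed without these 4 arrays, a choice made after the values had been seen.

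The promoters of Mcl1, Bcl2l1, Bid and Bcl10 are shown because these genes had probe sets that changed with CHX in the results below. Bcl2l11, which also had one, is not shown for length: each of its 2 promoters in the table holds 3 GC boxes and 0 NF-κB matches. Pmaip1 had one too and is not shown because no promoter of it was available. Each stretch runs from 250 bases before to 50 bases after a transcription start given by RefSeq (build GRCm38.p6). Capitals mark every match, on either strand, to the GC box (GGGCGG) or to the NF-κB consensus. The positions are chr3:95658471-95658770 on the plus strand for Mcl1, chr2:152830668-152830967 on the minus strand for Bcl2l1 (1 of its 3 promoters in the table, the only one of them with an NF-κB match), chr6:120916775-120917074 on the minus strand for Bid and chr3:145924012-145924311 on the plus strand for Bcl10.
Mcl1: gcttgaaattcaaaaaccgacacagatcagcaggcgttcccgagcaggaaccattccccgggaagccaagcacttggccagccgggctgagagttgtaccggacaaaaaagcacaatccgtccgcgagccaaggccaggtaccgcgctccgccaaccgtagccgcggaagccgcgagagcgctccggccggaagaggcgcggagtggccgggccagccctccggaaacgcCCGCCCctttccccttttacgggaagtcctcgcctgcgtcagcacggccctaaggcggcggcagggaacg
Bcl2l1: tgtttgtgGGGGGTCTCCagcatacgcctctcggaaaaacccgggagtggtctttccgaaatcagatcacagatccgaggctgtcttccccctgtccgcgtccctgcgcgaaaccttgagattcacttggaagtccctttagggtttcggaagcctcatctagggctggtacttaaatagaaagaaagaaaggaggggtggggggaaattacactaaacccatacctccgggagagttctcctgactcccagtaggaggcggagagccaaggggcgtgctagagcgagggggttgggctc
Bid: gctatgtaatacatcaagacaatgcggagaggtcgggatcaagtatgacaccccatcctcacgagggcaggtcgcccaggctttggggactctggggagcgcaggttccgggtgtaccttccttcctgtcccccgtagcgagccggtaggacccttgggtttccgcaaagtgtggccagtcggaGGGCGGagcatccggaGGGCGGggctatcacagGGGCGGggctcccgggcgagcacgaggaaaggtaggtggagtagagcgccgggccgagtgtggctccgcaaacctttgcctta
Bcl10: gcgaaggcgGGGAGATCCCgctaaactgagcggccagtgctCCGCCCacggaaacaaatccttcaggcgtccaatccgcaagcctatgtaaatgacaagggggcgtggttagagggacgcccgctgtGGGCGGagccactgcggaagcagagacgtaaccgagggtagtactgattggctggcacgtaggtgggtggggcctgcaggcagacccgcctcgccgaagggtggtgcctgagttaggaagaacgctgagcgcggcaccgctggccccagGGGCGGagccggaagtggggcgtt

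Motifs were searched on both strands in the 14 promoters that the table holds for 9 of the 10 genes. These 9 include Bax, which has no probe set annotated with it alone, and lack Pmaip1. The interferon-stimulated response element (ISRE, a pair of GAAA with 2 bases of any kind between them) matched 0 of the 14, against 3.44% of all 32851 promoters in the table. The NF-κB consensus matched 3 of the 14, among them the Bcl2l1 and Bcl10 promoters above, against 8.46% of all promoters. The E-box CACGTG of Myc/Max matched 2 of the 14, that of Bax among them, against 7.15%, and the GC box 10 of the 14, against 35.7%. Counted by gene, the GC box matched 7 of 9, and a share of all genes was not computed. Promoters of the same gene are not independent, and 2 of those of Bbc3 overlap. The Mcl1 promoter holds 1 GC box, those of Bid and Bcl10 hold 3 each, and the Bcl2l1 promoter shown holds 0. A match of letters is not a bound site, and no match in 300 bases says nothing of sites elsewhere.

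In each of the 3 comparisons of CHX, few of the 27 probe sets were called in the main model, which leaves out the replicate number. In bulk RNA of a culture, fewer cells that transcribe a gene and less transcription per cell cannot be told apart. CHX against mock called 0 of 27, where 10.9% of all 27773 probe sets were called. At an unadjusted p under 0.05 it had 9 of 27, against 30.9% of all. IFNα+CHX against IFNα called 1 of 27, where 11.9% of all were called, and IFNγ+CHX against IFNγ called 2 of 27, where 14% of all were called. All 3 of these calls were higher with CHX, a direction called for 5.54% of all probe sets in the presence of IFNα and for 4.9% in the presence of IFNγ. They are Bid in the presence of IFNα and Pmaip1 and Mcl1 (1416880_at) in the presence of IFNγ, each described with its gene. With the replicate number as a block, CHX against mock called 4 of 27 (16.9% of all). IFNα+CHX against IFNα then called 2 (17.7% of all) and IFNγ+CHX against IFNγ called 7 (20.5% of all).

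Since the same cells were compared with and without CHX in 3 IFN states, the CHX effect averaged over the states was also tested, a comparison added after the values had been seen. Its 9 arrays with CHX and 9 arrays without CHX are those of the 3 comparisons above, so it is no independent evidence. The average called 12 of 27 probe sets (44.4%), 10 higher and 2 lower with CHX, where 30.6% of all probe sets were called, 12.7% higher and 17.9% lower. The 12 belong to 6 genes: Mcl1, Pmaip1, Bid, Bcl2l11 and Bcl10 were higher, and Bcl2l1 was lower. The median log2 change was 0.23 over the 27 and 0.03 over all probe sets tested. Without the 4 arrays of high 3′ to 5′ ratio, 8 of 27 were called, 6 of them among the 12, where 26.7% of all probe sets were called. Probe sets of a gene overlap in what they measure and are not independent.

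**Figure D1:**
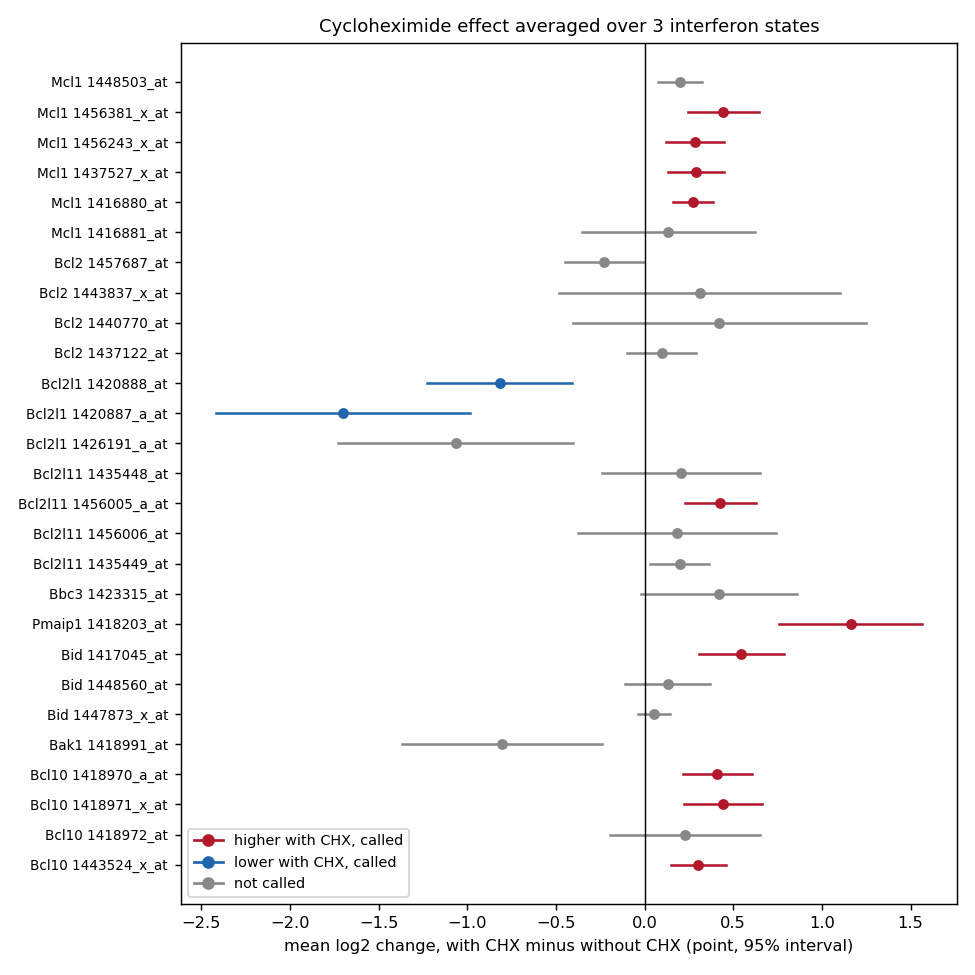
The CHX effect averaged over the 3 IFN states (with CHX minus without CHX, log2) for the 27 probe sets tested, with its 95% interval from the limma fit. The 10 red probe sets were called higher, the 2 blue ones, both of Bcl2l1, were called lower, and the grey ones were not called.

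Mcl1, the short-lived survival gene, had slightly more newly transcribed RNA with CHX, though its lead probe set was not called. Whether its synthesis, processing or decay changed was not tested. Probe set 1416880_at read 7369.1, 6494.9 and 6006.2 in IFNγ+CHX, 5469, 4993.9 and 4884.7 in IFNγ, 6736.5, 6307.8 and 5897.2 in IFNα+CHX, 5384.5, 5873.8 and 5221.8 in IFNα, 6703.8, 6551 and 6304.3 in CHX, and 5391.7, 5745.8 and 5345.1 in mock. All 9 arrays with CHX lay above all 9 without it. The average change was 0.27 in log2 (SE 0.05, adjusted p = 0.000855), or 1.21-fold. With IFNγ present the change was 0.37 (SE 0.09, adjusted p = 0.00967), a call that was kept without the third IFNγ+CHX array (0.44, adjusted p = 0.00630), was lost when any other of the 6 arrays was left out, with adjusted p up to 0.0415, and was lost without the 4 arrays of high 3′ to 5′ ratio (0.36, adjusted p = 0.0443).

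The lead probe set of Mcl1, 1448503_at, read 11215, 10651.5 and 11986 in IFNγ+CHX, 9132.6, 8907.4 and 8488 in IFNγ, 11583.7, 11636 and 9466.1 in IFNα+CHX, 9413, 10631.4 and 9882.7 in IFNα, 11373.9, 11268 and 10306.1 in CHX, and 10039.2, 11019.4 and 9270.7 in mock. The arrays of IFNγ+CHX stood apart from those of IFNγ, while the other pairs with and without CHX overlapped. Its average change of 0.20 (SE 0.06) missed the threshold at an adjusted p of 0.0131, and its adjusted p was 0.00932 without the second mock array, 0.00373 without the third IFNα+CHX array and 0.00875 without the 4 arrays of high 3′ to 5′ ratio. The 3 probe sets 1456381_x_at, 1437527_x_at and 1456243_x_at had average changes of 0.44, 0.29 and 0.28 and were called, with adjusted p-values of 0.00153, 0.00550 and 0.00751. For the first of them no single array changed the call, but leaving out 1 array ended the call in 8 of 18 cases for 1437527_x_at and in 11 of 18 cases for 1456243_x_at, and without the 4 arrays of high 3′ to 5′ ratio none of the 3 was called, with changes of 0.41, 0.25 and 0.23 (adjusted p = 0.0176, 0.0375 and 0.0497).

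The remaining Mcl1 probe set, 1416881_at, had a pattern of its own. It read 789.8 on the second IFNγ+CHX array, 852.8 on the third IFNα+CHX array and 734.5 on the second IFNγ array, and between 1219.8 and 2074.5 on the other 15. These are 3 of the 4 arrays with a high 3′ to 5′ ratio of Actb, and the fourth, the first CHX array, read 1754.6. Its average change was 0.13, with a 95% interval of -0.36 to 0.62.

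**Figure D2:**
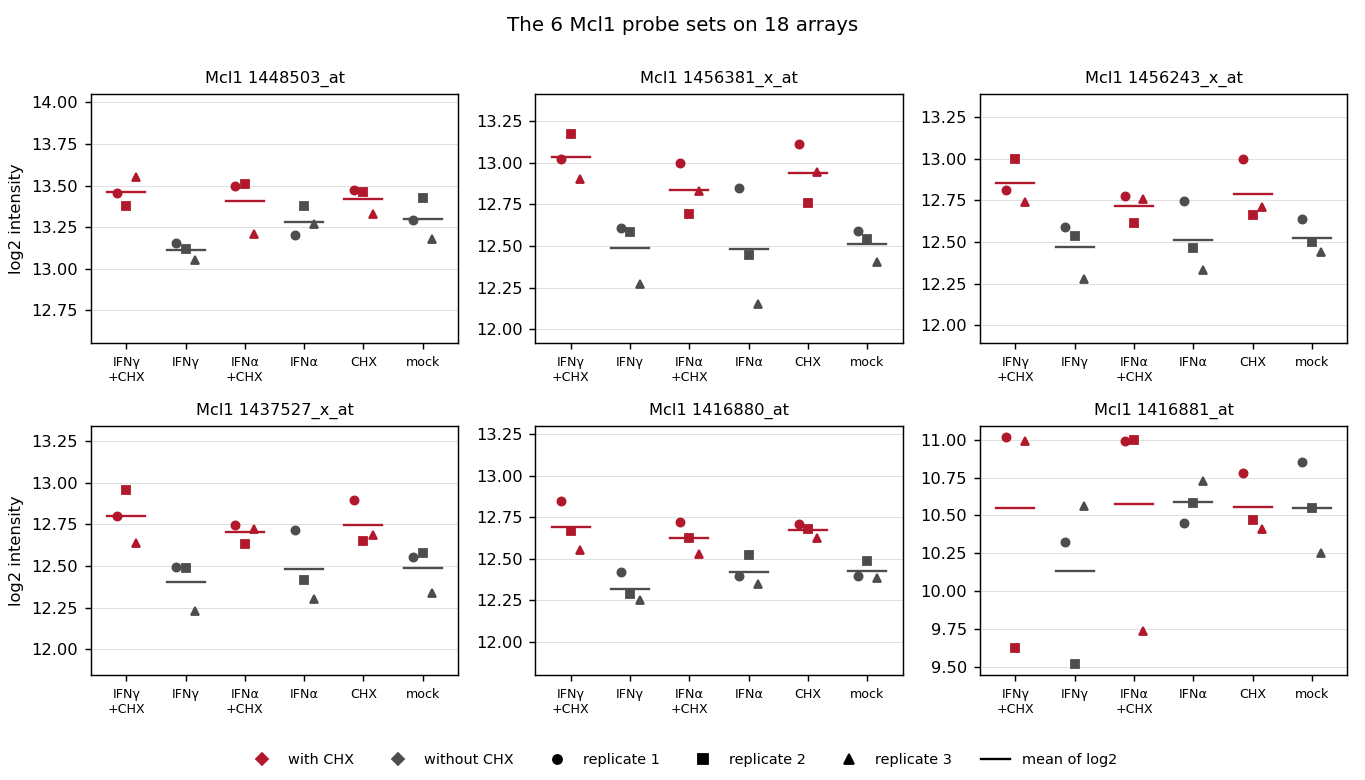
Log2 intensity of the 6 Mcl1 probe sets on the 18 arrays, 1 point per array with a marker for each replicate number and a line at the mean of each treatment, arrays with CHX in red and those without in grey. On 1416880_at all 9 arrays with CHX lie above the 9 without, and 1416881_at has 3 arrays far below the others.

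IFN alone did not move Mcl1 past the threshold. On 1448503_at the IFNγ arrays, at 8488 to 9132.6, lay below the mock arrays, at 9270.7 to 11019.4. For 1448503_at the change was -0.19 in IFNγ against mock (95% interval -0.41 to 0.03) and -0.02 in IFNα against mock (-0.23 to 0.20). The intervals exclude changes beyond these bounds at this level and say nothing of smaller ones. Over the 18 arrays, the genes whose lead probe sets ran most like 1448503_at, among 3198 genes whose treatment means spanned at least 1 in log2, were Gpcpd1 (Pearson r = 0.856), Ier2 (0.836), Specc1 (0.830), Plk2 (0.820) and Kctd9 (0.807). The 18 points share 6 treatments and 3 replicate numbers, so these coefficients only describe likeness.

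Bcl2l1, the gene of BCL-XL, fell with CHX. Its lead probe set 1420888_at read 327.6, 304.6 and 196.4 in IFNγ+CHX, 636.6, 566.5 and 428.8 in IFNγ, 345.2, 203 and 221.5 in IFNα+CHX, 845.8, 448.2 and 354.1 in IFNα, 363, 248.8 and 226.9 in CHX, and 491.8, 313.4 and 320 in mock. All 9 arrays with CHX lay below the mean of their counterparts, and the groups overlapped only between CHX and mock. The average change was -0.82 (SE 0.19, adjusted p = 0.00297), or 1.76-fold lower with CHX, and no single array changed this call. Without the 4 arrays of high 3′ to 5′ ratio it was -0.87 and missed the threshold (adjusted p = 0.0155).

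The second Bcl2l1 probe set, 1420887_a_at, read 19.6, 4.4 and 12.8 in IFNγ+CHX, 45, 16.3 and 68.8 in IFNγ, 14.8, 22.9 and 8.7 in IFNα+CHX, 40.7, 46.6 and 54.3 in IFNα, 6.5, 13.2 and 14.4 in CHX, and 36, 22.6 and 38.9 in mock. It fell by 1.70 on average (SE 0.33, adjusted p = 0.000845), 3.25-fold, and by 1.45 without the 4 arrays (adjusted p = 0.000159). With 16 added to every value before the log it fell by 0.949 and was still called. The third, 1426191_a_at, had a change of -1.07 and missed the threshold at an adjusted p of 0.0122, with 4 to 7.3 on the arrays with CHX and 6 to 32 on those without. Several of these values lie near the floor of the array, where the fold is poorly fixed. In the single comparisons none of the 3 probe sets was called, the lowest adjusted p being 0.0327 for 1420887_a_at in IFNγ+CHX against IFNγ.

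Bcl2 itself, the gene that gave the family its name, had no called probe set. The lead, 1457687_at, read 96.9, 97.9 and 99.1 in IFNγ+CHX, 102.5, 158.6 and 101.8 in IFNγ, 98, 92.2 and 88.6 in IFNα+CHX, 101.9, 130.2 and 93.1 in IFNα, 100.1, 95 and 77.3 in CHX, and 100.4, 124 and 89.3 in mock. In each treatment without CHX the second replicate was the highest. The average CHX change was -0.23 (SE 0.10, adjusted p = 0.0934), with 0 of the 9 CHX arrays above the mean of their counterparts. The 3 other Bcl2 probe sets tested had average changes of 0.10 to 0.42 and intervals that hold 0.

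**Figure D3:**
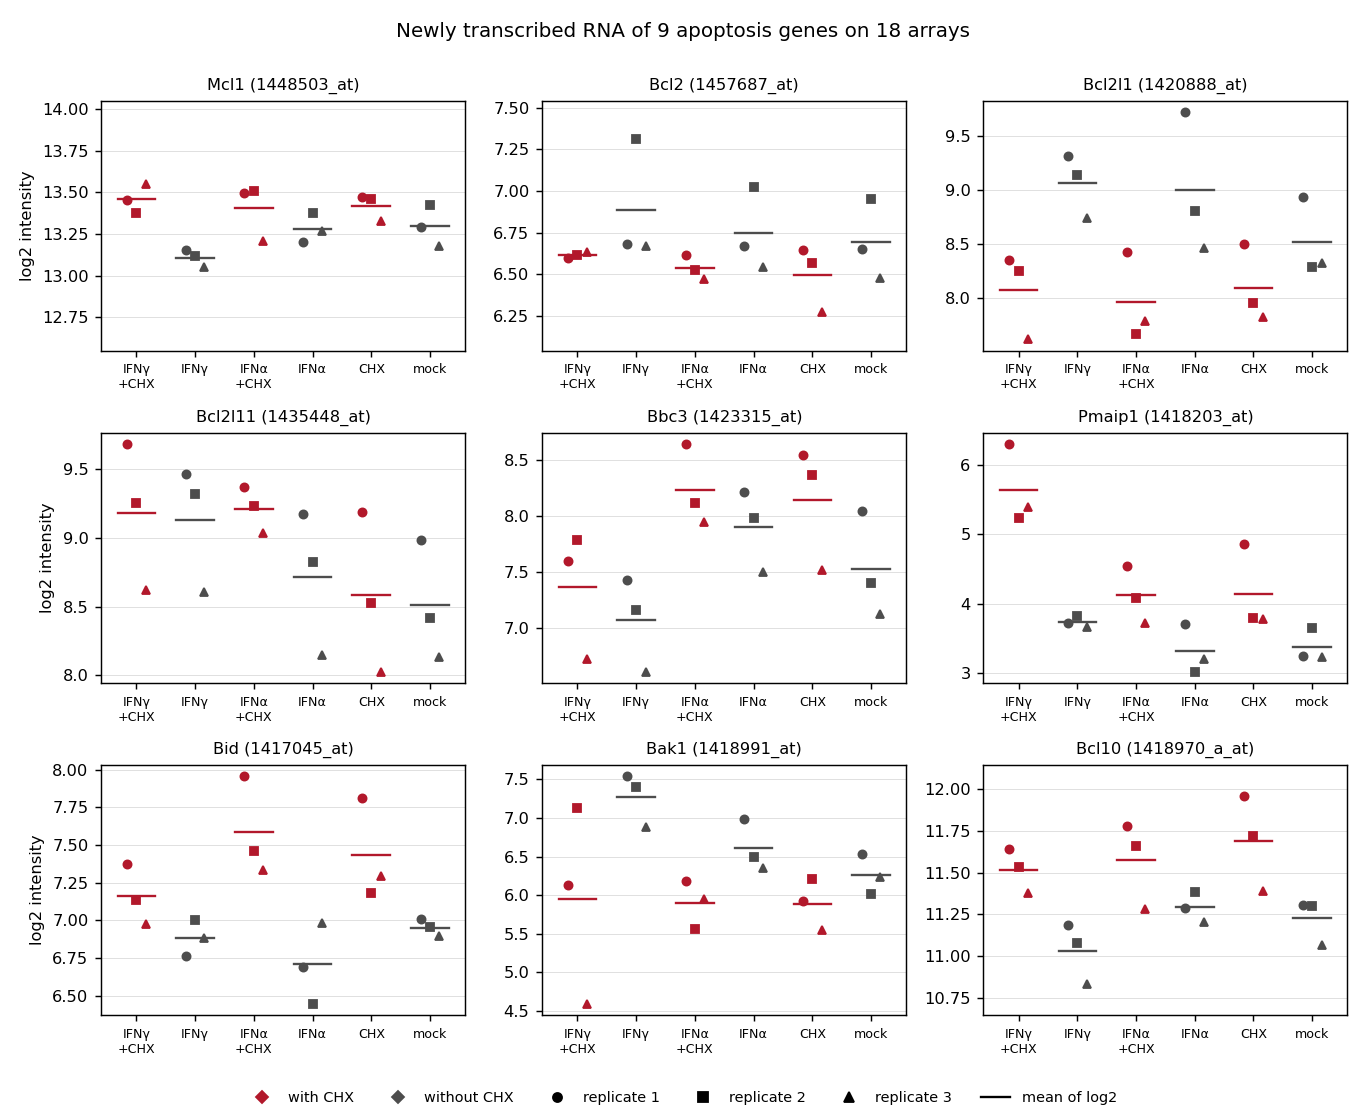
Log2 intensity of the lead probe set of 9 genes on the 18 arrays, 1 point per array with a marker for each replicate number and a line at the mean of each treatment, arrays with CHX in red and those without in grey. Pmaip1 is highest on the 3 IFNγ+CHX arrays, Bcl2l1 and Bak1 are lower with CHX on average, and Bid and Bcl10 are higher.

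Pmaip1, the gene of the BH3-only protein NOXA, which binds MCL1, had the largest rise with CHX among the 27 probe sets. Its only probe set, 1418203_at, read 78.8, 37.8 and 41.9 in IFNγ+CHX, 13.2, 14.1 and 12.6 in IFNγ, 23.4, 16.9 and 13.2 in IFNα+CHX, 13.1, 8.1 and 9.2 in IFNα, 29.1, 13.8 and 13.7 in CHX, and 9.5, 12.5 and 9.4 in mock. The 3 IFNγ+CHX arrays were the 3 highest of the 18. Each treatment with CHX stood above its counterpart without overlap, though with IFNα only by 13.2 against 13.1. CHX against mock and IFNα+CHX against IFNα were not called (adjusted p = 0.123 and 0.103). The average change with CHX was 1.16 (SE 0.19, adjusted p = 0.000174), or 2.24-fold, and no single array and not the 4 arrays of high 3′ to 5′ ratio changed this call. Among the alternatives this change was as low as 0.64, and the call was kept in all 26. The values without CHX, 8.1 to 14.1, are close to the filter limit of 8.5, so that the size of the fold rests on signals near background.

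In single comparisons Pmaip1 rose 3.76-fold in IFNγ+CHX against IFNγ (log2 change 1.91, SE 0.33, adjusted p = 0.000687), and no single array left out ended this call. With 16 added to every value before the log the change was 1.18 and still called, and with only the arrays of this comparison fitted the call was lost (adjusted p = 0.0140). It also rose 2.83-fold in IFNγ+CHX against CHX (95% interval of the log2 change 0.80 to 2.20, adjusted p = 0.00946). This second call was lost without the second CHX array (1.32, adjusted p = 0.0524), the third CHX array (1.32, 0.0509), the first IFNγ+CHX array (1.17, 0.0450) or the third IFNγ+CHX array (1.63, 0.0157), and was kept without the 4 arrays of high 3′ to 5′ ratio (2.06, 0.00238). IFNγ against mock gave 0.36 (95% interval -0.34 to 1.06). The difference between the IFNγ responses with and without CHX was 1.14 (SE 0.46) and did not pass the test (adjusted p = 0.533). IFNα moved Pmaip1 by -0.03 with CHX and by -0.06 without it, both with an adjusted p of 1.

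Bid, whose protein links death receptors to mitochondria once caspase-8 has cut it, was higher with CHX on its lead probe set. 1417045_at read 166.2, 140.8 and 125.9 in IFNγ+CHX, 108.7, 128.2 and 117.9 in IFNγ, 248.3, 176 and 161.4 in IFNα+CHX, 103.4, 87.2 and 126.4 in IFNα, 224.9, 145.2 and 157.3 in CHX, and 128.5, 124.1 and 118.8 in mock. The groups were separate except between IFNγ+CHX and IFNγ, and all 9 CHX arrays lay above the mean of their counterparts. The average change was 0.55 (SE 0.11, adjusted p = 0.00112), 1.46-fold, and was as large without the 4 arrays of high 3′ to 5′ ratio (0.55, adjusted p = 0.00333). With IFNα present Bid rose 1.84-fold (0.88, SE 0.19, adjusted p = 0.00478). That call was lost without the first IFNα+CHX array (0.69, 0.0232), the second IFNα+CHX array (0.94, 0.0104), the first IFNα array (0.87, 0.0172) or the second IFNα array (0.75, 0.0285). The other Bid probe sets, 1448560_at and 1447873_x_at, lay between 7.3 and 23.2 on all arrays and were not called, with average changes of 0.13 and 0.05.

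Bcl2l11, the gene of BIM, was called on 1 of its 4 tested probe sets. 1456005_a_at read 338.2, 374.3 and 255.4 in IFNγ+CHX, 250.5, 193.1 and 259.1 in IFNγ, 272.1, 335.9 and 385.5 in IFNα+CHX, 279.2, 262.7 and 251.5 in IFNα, 253.4, 208.5 and 241.8 in CHX, and 163.1, 173.4 and 155.2 in mock. The mock arrays were the 3 lowest of the 18. The average CHX change was 0.43 (SE 0.09, adjusted p = 0.00185), 1.34-fold, and 0.29 without the 4 arrays of high 3′ to 5′ ratio, where it was not called (adjusted p = 0.0193). The lead probe set 1435448_at gave 0.21 (95% interval -0.24 to 0.65), with a spread among replicates as wide as 393.6 to 822.3 in IFNγ+CHX and 280.8 to 506.7 in mock. The average changes of 1456006_at and 1435449_at were 0.18 and 0.20, not called.

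Bcl2l11 had positive IFN values that mostly missed the threshold. Averaged over the states with and without CHX, also a comparison added after the values had been seen, the change of 1456005_a_at was 0.48 with IFNγ (adjusted p = 0.0149) and 0.59 with IFNα (adjusted p = 0.0130), just short of the threshold. The dimmer 1435449_at read 34.3, 35.3 and 30.4 in IFNγ+CHX and 22.6, 20.6 and 20.7 in CHX, with no overlap, and was called in that comparison (0.64, SE 0.14, adjusted p = 0.00774). It missed the threshold when any 1 of the 6 arrays was left out, with changes of 0.60 to 0.71 and adjusted p-values of 0.0105 to 0.0352, and without the 4 arrays of high 3′ to 5′ ratio (0.65, adjusted p = 0.0409). Its value in IFNγ against mock was 0.17, and the difference between both responses did not pass the test (0.47, adjusted p = 0.543).

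Bbc3, the gene of PUMA and a target of p53, was not called in the main model, which leaves out the replicate number. Its probe set 1423315_at read 193.8, 221.1 and 105.3 in IFNγ+CHX, 172.6, 143.3 and 97.6 in IFNγ, 400, 277.5 and 246.2 in IFNα+CHX, 296.8, 253.6 and 181 in IFNα, 373.8, 331.1 and 182.9 in CHX, and 264.1, 168.8 and 139.7 in mock. The third replicate was the lowest in all 6 treatments. The average change with CHX was 0.42 (adjusted p = 0.116) and that with IFNγ was -0.62 (adjusted p = 0.188).

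Bak1, the gene of the effector BAK, had a negative average CHX value and a positive IFNγ value, neither of them called. 1418991_at read 70.2, 140.5 and 24.1 in IFNγ+CHX, 186.1, 169 and 117.8 in IFNγ, 72.5, 47.1 and 61.9 in IFNα+CHX, 126.8, 90.2 and 81.8 in IFNα, 60.5, 73.7 and 46.7 in CHX, and 92.3, 64.6 and 75.6 in mock. The second IFNγ+CHX array, which also had the highest 3′ to 5′ ratio of Actb, overlapped with the IFNγ arrays. The average CHX change was -0.80 (SE 0.26) and missed the threshold (adjusted p = 0.0238). Without the second IFNγ+CHX array it was -0.999 and was called (adjusted p = 0.00150), as was IFNγ+CHX against IFNγ (-1.91, adjusted p = 0.00269, against -1.32 and 0.0492 with all arrays). Without the 4 arrays of high 3′ to 5′ ratio, that array among them, the values were -0.99 (adjusted p = 0.0122) and -1.85 (adjusted p = 0.0191), neither called. The 3 IFNγ arrays lay above the 3 mock arrays, and the change of 1.01 (95% interval 0.04 to 1.99) was not called (adjusted p = 0.426).

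Bcl10, the NF-κB adaptor, was higher with CHX on 3 of its 4 probe sets. 1418970_a_at read 3190.6, 2968.8 and 2656.7 in IFNγ+CHX, 2332.1, 2161.3 and 1822.7 in IFNγ, 3522.2, 3232.8 and 2490.4 in IFNα+CHX, 2499, 2671.8 and 2357.9 in IFNα, 3982.5, 3373.2 and 2686.3 in CHX, and 2535.7, 2523.2 and 2146.9 in mock. Only IFNα+CHX and IFNα overlapped. The average change was 0.41 (SE 0.09, adjusted p = 0.00225), 1.33-fold, and 0.42 without the 4 arrays of high 3′ to 5′ ratio (adjusted p = 0.00406). Probe sets 1418971_x_at and 1443524_x_at gave 0.44 (adjusted p = 0.00283) and 0.30 (adjusted p = 0.00318), and the call of 1443524_x_at was lost without the 4 arrays (0.28, adjusted p = 0.0199). The fourth, 1418972_at, had 0.23 (95% interval -0.19 to 0.65), with its 3 lowest values, 807.2, 801.2 and 533.6, on the same 3 arrays on which 1416881_at of Mcl1 was lowest.

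The IFN comparisons called few members. IFNγ against mock called 0 of 27, where 2.12% of all probe sets were called, with 2 of 27 at an unadjusted p under 0.05 against 10.8% of all. IFNα against mock called 0 of 27, where 0.569% were called, with 1 of 27 at an unadjusted p under 0.05 against 5.84% of all. With CHX present, IFNγ called 2 of 27 (4.34% of all), the probe sets of Pmaip1 and Bcl2l11 given above, both higher as were 3.22% of all, and IFNα called 0 (0.961% of all), with 2 of 27 at an unadjusted p under 0.05 against 4.01% of all. The IFN by CHX interaction, which is the response in the presence of CHX minus the response in its absence, was called for 0 of 27 with IFNγ (0.241% of all) and 0 of 27 with IFNα (0.187% of all), with 2 and 0 of 27 at an unadjusted p under 0.05 against 7.78% and 3.96% of all. Averaged over the states of CHX, IFNγ and IFNα called 0 of 27 each (5.57% and 0.969% of all), with 5 and 2 of 27 at an unadjusted p under 0.05 against 18.4% and 5.45% of all.

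**Figure D4:**
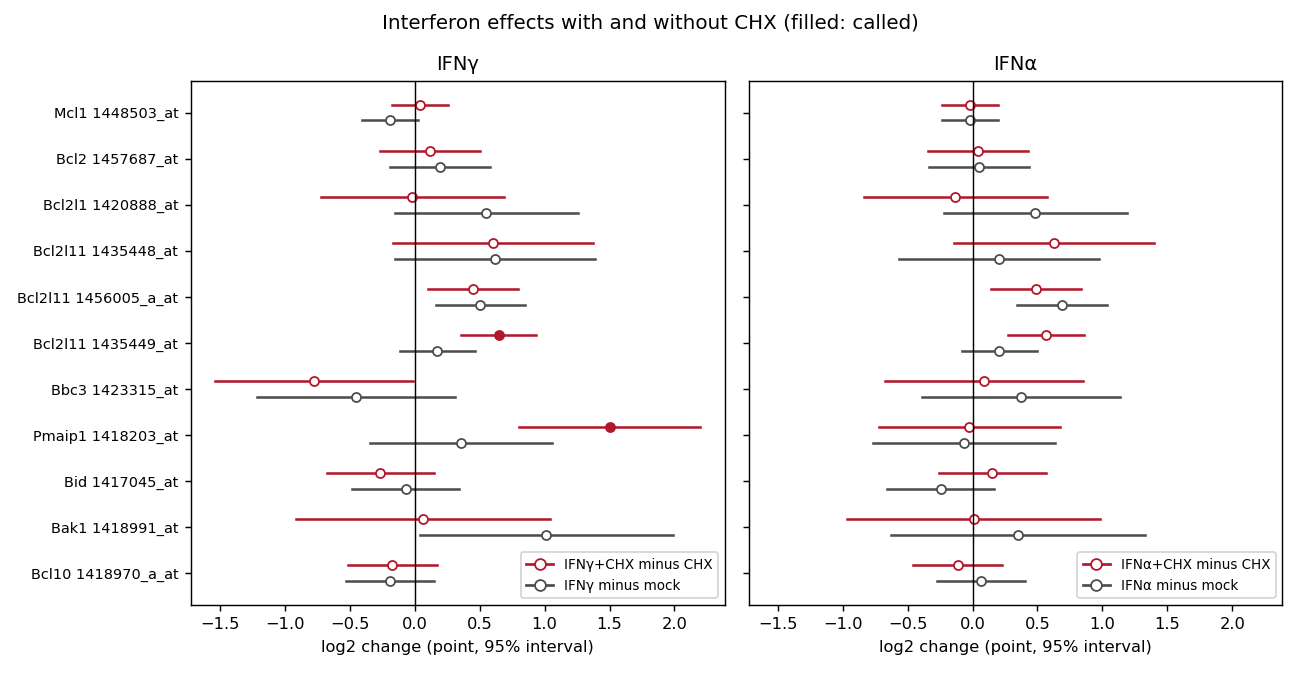
Log2 change and 95% interval of IFNγ (left) and IFNα (right) for the 9 lead probe sets and 2 further Bcl2l11 probe sets, in red with CHX (against CHX) and in grey without it (against mock). Filled points were called: Pmaip1 and 1435449_at of Bcl2l11 for IFNγ with CHX.

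Genes around the members were counted by 6 lists of the pathway, with 1 lead probe set per gene. In the list of other BCL2 family genes, 8 of 15 were tested, and in the average CHX effect 1 was higher (12.7% of all probe sets) and 1 lower (17.9% of all), with a list median of 0.08. Bcl2l13, a BCL2-like protein of the outer mitochondrial membrane, rose by 1.26 (SE 0.09, adjusted p = 1.1e-07), and Bok, a relative of the effectors, fell by 1.26 (SE 0.11, adjusted p = 5.73e-07). Bnip3, a mitochondrial protein of mitophagy, rose by 1.68 in IFNγ against mock (adjusted p = 1.14e-06) and by 1.95 in IFNγ+CHX against CHX (adjusted p = 1.26e-07).

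Of the apoptosome, caspase and IAP genes, 9 of 11 were tested, and CHX on average raised 4 and lowered 3, with a list median of 0.11, where 12.7% of all probe sets were called higher and 17.9% lower. Birc3 and Birc2, ubiquitin ligases of TNF receptor signalling, rose 5.59-fold and 3.04-fold. Xiap, a caspase inhibitor, rose by 0.60 in log2 and Diablo, an antagonist of the IAPs, by 0.31. Casp6 and Casp9, an executioner and an initiator caspase, and Htra2, a mitochondrial protease, had changes of -1.25, -1.06 and -0.67. Of the 7 genes of MCL1 protein turnover, 2 were higher with CHX and 0 lower, with a median of 0.00359: Usp9x, a deubiquitinase of MCL1, by 0.70 and Huwe1, a ubiquitin ligase of MCL1, by 0.43. Of the death receptor genes that lead to BID, 6 of 8 were tested and 1 was higher with CHX, with a median of -0.12: Fas by 1.20. In IFNγ against mock, where 2.12% of all probe sets were called, 2 of the 6 were higher, Fas by 1.94 (adjusted p = 2.42e-07) and Tnfrsf1a by 1.64 (adjusted p = 0.000665).

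Of the partners of BCL10, 6 of 10 were tested and 3 were higher with CHX on average (12.7% of all), with a median of 0.22: the scaffold Card10 by 0.98 on mean intensities per treatment of 4.4 to 15.1, near background, the paracaspase Malt1 by 0.70 and the ubiquitin ligase Traf6 by 0.33. The change of Card10 was 1.26 in CHX against mock and 1.53 in IFNα+CHX against IFNα but 0.15 in IFNγ+CHX against IFNγ, none of them called. In CHX against mock alone 0 of these 6 were called. Of the transcription factors of BH3-only genes and their regulators, 7 of 9 were tested, with 3 higher and 1 lower and a median of 0.23. Foxo3, a known activator of Bcl2l11, rose by 1.06, the stress factor Atf4 by 0.53 and Mdm2, the ubiquitin ligase of p53, by 0.33, while the change of E2f1 was -0.67. Mean intensities of Foxo3 were 895.2 in CHX and 594.5 in mock, and 924.9 in IFNα+CHX and 435.8 in IFNα. With IFNγ they were higher, 3083 in IFNγ+CHX and 1067 in IFNγ. These medians stand beside 0.03 over all probe sets tested. Card10, Malt1, Traf6, Casp9, Htra2, Xiap, Diablo, Huwe1, Foxo3, Mdm2 and E2f1 were named after their values had been seen.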

How the data were processed

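Newly transcribed RNA was measured on 18 Affymetrix arrays. The authors computed the deposited intensity values, which are linear, with gc-RMA according to the methods, and the labels name Affymetrix Expression Console with no version. No further scaling was applied to this table. From 45101 probe sets, 64 controls were dropped. The study's filter by present calls was replaced by as many probe sets of the highest signal, 27773 with ties. Log2 intensities of all 18 arrays were fitted with limma 3.58.1 in R 4.3.3 as 1 model of 6 treatments (12 residual and 2.05 prior degrees of freedom), two-sided, with Benjamini-Hochberg adjustment over the 27773 in each comparison. In all, 9 comparisons were planned and 3 averages were added after the values had been seen. The script was tested on simulated data. Members and lists were chosen with earlier results of these data known. All members were named, with list genes called in CHX, IFNα or IFNγ against mock (at most 3 of a list) and the 5 genes most like Mcl1. Symbols came from the platform annotation, which gives 1 symbol for 34945 of 45037 probe sets. P-values measure the spread among 3 biological replicates. Arrays have no sequencing depth, and their number limits the precision. Alternatives were 2 added constants (1 and 16), no filter, a filter at 32, quantile normalization, median centring, the replicate number as a block, only the arrays compared, and single arrays left out. The result of 1 further promoter motif is not reported here.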

Additional observations from a re-analysis of the deposited data

Results flagged for a closer look

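For 2 probe sets each IFNα+CHX array lay below the mean of the CHX arrays and each IFNα array above the mean of the mock arrays. The arrays of the groups overlapped in both comparisons, and the difference did not pass the interaction test in limma. For 1447873_x_at of Bid the response to IFNα was -0.06 in log2 with CHX and 0.03 without it, a difference of -0.10 (adjusted p = 1.00), on values of 7.3 to 8.9. For 1443524_x_at of Bcl10 it was -0.15 with CHX and 0.11 without it, a difference of -0.26 (adjusted p = 1.00).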

How the results depend on the processing

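Among the 27 probe sets, the average CHX effect called 10 to 13 when single arrays were left out, against 12 with all, and no alternative tried turned the direction of a called value. Leaving out single arrays gave 0 to 1 calls for IFNα+CHX against IFNα, 1 to 2 for IFNγ+CHX against IFNγ, 0 to 1 for IFNα+CHX against CHX and for IFNγ+CHX against CHX, 0 to 2 for the average IFNα effect and 0 to 1 for the average IFNγ effect. It gave 0 for CHX, IFNγ or IFNα against mock and for both interactions. With only the arrays of a comparison fitted, 0 were called for IFNα+CHX against IFNα, IFNγ+CHX against IFNγ and IFNγ+CHX against CHX, and 1 for the average IFNα effect. Shares of all probe sets were not computed for these fits or for those with single arrays left out. IFNγ+CHX against IFNγ called 1 under a filter at 32 (19.4% of all) and under median centring (15.2% of all). Without the 4 arrays of high 3′ to 5′ ratio it called 2, 1 higher and 1 lower (12.3% of all). Of these 2, 1 was also called with all arrays. IFNγ+CHX against CHX called 1 under no filter (2.4% of all), a filter at 32 (5.96%) and quantile normalization (4.2%). It also called 1 under median centring (4.44%) and without the 4 arrays of high 3′ to 5′ ratio (4.93%). The average IFNγ effect called 1 under quantile normalization (5.29% of all) and without those 4 arrays (5.16%). The cause of these shifts was not tested. Values of single probe sets under all alternatives were tallied only for the lead probe sets and for those already called in a comparison. Of these, 2092 stayed on their side of the threshold, 60 fell short of it and 21 newly passed it. Calls gained on other probe sets are not in this tally.

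With the replicate number as a block, 4 of 27 were called for CHX against mock, where 16.9% of all were called. IFNα+CHX against IFNα called 2 (17.7% of all) and IFNγ+CHX against IFNγ called 7, 6 higher and 1 lower (20.5% of all). The average IFNγ effect called 4 (8.22% of all). Among the calls gained under the block were Bbc3 (0.62, adjusted p = 0.00898) and Bcl10 (0.46, adjusted p = 0.00215) in CHX against mock, Bbc3 in the average CHX effect (0.42, adjusted p = 0.00155), the average IFNγ effect (-0.62, adjusted p = 0.00166) and IFNγ+CHX against CHX (-0.78, adjusted p = 0.00454), and Bcl2l1 in IFNγ+CHX against IFNγ (-0.99, adjusted p = 0.000533) and in IFNα+CHX against IFNα (-1.04, adjusted p = 0.000428). Arrays of the same number deviated together in most cases (38 of 45 pairs had a correlation over 0.1, median 0.474, lowest -0.401), and 14 of 18 arrays correlated best with one of their own number. The labels do not say what a number shares, which stays unknown. Precision is limited by 3 arrays per treatment and, for Pmaip1, 2 of the Bcl2l1 probe sets and 2 of the Bid probe sets, by signals near background.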
